A study of Arabidopsis thaliana with 43 samples.

Results

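The middle of embryogenesis in the thale cress Arabidopsis thaliana was set against both of its ends. The middle is 9 libraries, 3 each of late heart, early torpedo and late torpedo embryos, and the ends are 3 preglobular and 3 mature green libraries. A locus was taken as higher, or lower, in the middle when it met 2 conditions against each end separately. Its mean CPM over the 9 middle libraries differed at least 4-fold from the mean of the end, CPM being estimated counts scaled to a common library size with TMM factors. The quasi-likelihood test of edgeR also gave a Benjamini-Hochberg adjusted p under 0.05 (a call) in the same direction. The filter on low counts passed 21014 of 32507 loci, which were tested. By this rule 627 loci (2.98% of those tested) were higher and 215 loci (1.02%) were lower in the middle than at both ends. A call against both ends at any fold was made for 2309 loci (11%) as higher and 1327 (6.31%) as lower. The 4-fold limit alone was met by 2787 loci (13.3%) above and 1587 (7.55%) below preglobular, and by 3129 (14.9%) above and 2359 (11.2%) below mature green.

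All embryos were wild type Col-0, and each of the 15 libraries was made by the Smart-seq2 method from RNA of 50 pooled embryos. In this method RNA with a poly(A) tail is reverse transcribed over its length, and the cDNA is amplified by PCR. The 15 libraries compared are part of 43 in the series, and all 24 libraries of the 8 stages entered the fit, so that globular, early heart and bent cotyledon embryos (3 libraries each) could be read as stages whose levels the rule did not use. The 3 mature green libraries are numbered as separate replicates in their titles, but each is described as the first replicate, so how far they sample different collections is not known. Whole embryos were sequenced in bulk, so fewer cells of a type and less RNA per cell cannot be told apart in any value below.

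The embryo of Arabidopsis is green for much of its life. Its plastids build thylakoid membranes and chlorophyll as the cotyledons are laid down and grow out, and they lose much of this machinery again as the seed matures and fills with protein and oil. Light-harvesting proteins (LHCB and LHCA) bind chlorophyll around the photosystems, the Calvin cycle fixes carbon dioxide in the stroma, and GLK transcription factors activate genes of both the antenna and chlorophyll synthesis.

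The 15 libraries held 18153975 to 28234019 estimated counts each. Early torpedo replicate 2 stood apart from the other early torpedo libraries, with a summed level of 35 nuclear photosystem and antenna genes of 63846 CPM against 22278 and 23120 CPM. Mature green replicate 3 stood apart in the other direction, with 2899 CPM for the same sum against 11173 and 12158 CPM. Each also had the lowest mean correlation of log2 CPM, over loci, with the other libraries of its stage, 0.952 against 0.969 and 0.971 at early torpedo and 0.953 against 0.965 and 0.964 at mature green. Preglobular replicate 3 was low as well, with 284 CPM against 991 and 1120 CPM, but its mean correlation of 0.962 lay between the 0.963 and 0.955 of the others. Without it 559 loci were higher and 260 lower, and 17 of the 35 genes met the rule. It is kept where only the 2 libraries that stand apart, early torpedo replicate 2 and mature green replicate 3, are left out. Without those 2, a setting chosen after seeing the data, 545 loci were higher and 233 lower, of which 517 and 180 were among those of the full comparison. The mature green libraries had the lowest TMM factors, 0.553 to 0.628, and those of the other stages began at 0.838. Summed levels of 6 endosperm marker genes were 4.98 to 7.48 CPM at preglobular, 4.52 to 8.20 CPM in the middle and 9.94 to 12.5 CPM at mature green, and up to 4 of the 6 were at 0 counts in a library. For 7 seed coat marker genes the sums were 23.2 to 28.1, 19.0 to 36.2 and 26.4 to 54.6 CPM, and at most 1 of the 7 was at 0 counts. The part of either tissue in the results was not tested.

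Against preglobular embryos 6713 loci (31.9%) were called higher and 6517 (31.0%) lower in the middle. Against mature green embryos 7594 loci (36.1%) were called higher and 7216 (34.3%) lower. When libraries were scaled by their totals alone, the split became 8945 higher and 4352 lower than preglobular, and 12484 higher and 3412 lower than mature green. That scaling raised the median log2 change over all loci tested from 0.03 to 0.33 against preglobular and from 0.04 to 0.93 against mature green, and it gave 1034 loci higher and 137 lower than both ends. All 627 higher loci were among the 1034, and the 137 were all among the 215. The rule therefore reads changes relative to the bulk of genes, not per embryo. Many folds rest on few counts at an end. Leaving out 1 library changed the ratio of means by more than 1.5 times, or took a group to 0, in 299 of 572 higher loci with a ratio to preglobular and 241 of 563 with a ratio to mature green, and in 42.9% and 49.8% of 203 lower loci.

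**Figure D1:**
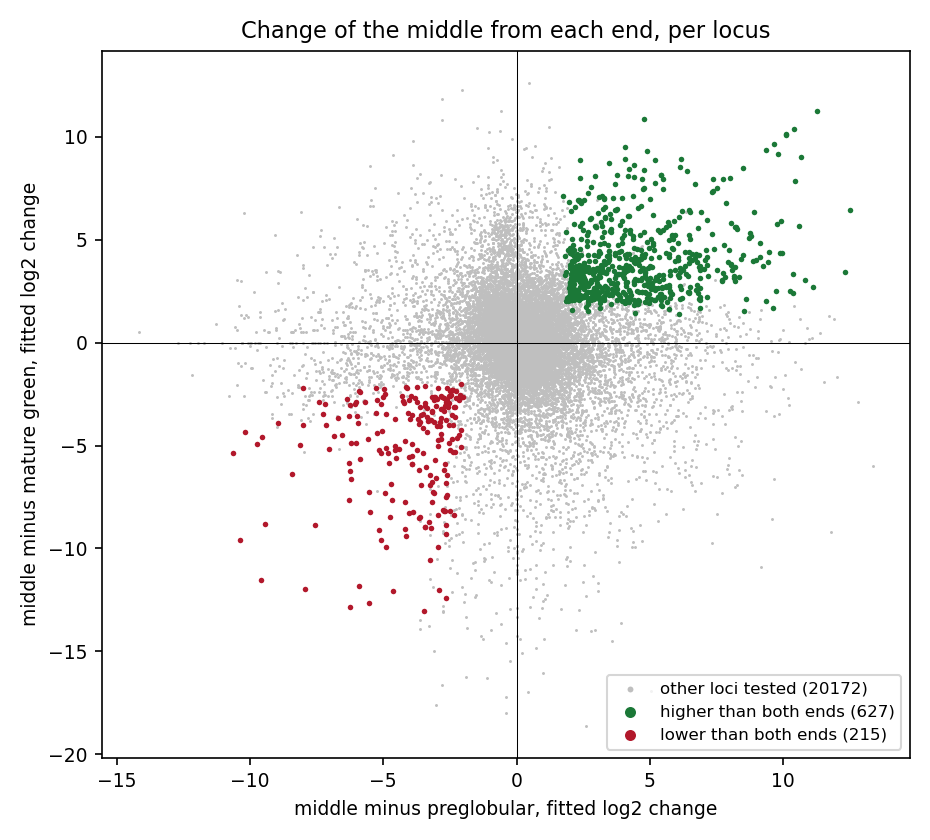
Fitted log2 change of the middle from preglobular (horizontal axis) and from mature green (vertical axis) for 21014 loci, 1 point each. The 627 loci higher than both ends lie in the upper right and the 215 lower loci in the lower left, with the other loci in grey spread on all sides.

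The 150 bases before the annotated gene start are printed for 6 genes, as read from the RefSeq sequence of TAIR10.1. Some of these genes were higher in the middle and others lower. The sequences run 5′ to 3′ toward the gene on its own strand. Capitals mark matches on either strand to 3 motifs, CACGTG (the G-box, a site class of bZIP and bHLH factors), GATAAG (the I-box of light-regulated genes) and GAANNTTC (the core of heat shock elements).
LHCB2.3, chr3:10255756-10255905, plus strand: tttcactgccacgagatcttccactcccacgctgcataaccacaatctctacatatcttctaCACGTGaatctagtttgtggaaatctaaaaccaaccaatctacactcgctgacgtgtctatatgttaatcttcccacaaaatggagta
PSBQA, chr4:11334202-11334351, plus strand: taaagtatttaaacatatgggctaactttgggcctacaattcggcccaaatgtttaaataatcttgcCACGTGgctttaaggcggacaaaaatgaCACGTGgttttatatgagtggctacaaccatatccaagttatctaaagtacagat
CRD1, chr3:21076355-21076504, plus strand: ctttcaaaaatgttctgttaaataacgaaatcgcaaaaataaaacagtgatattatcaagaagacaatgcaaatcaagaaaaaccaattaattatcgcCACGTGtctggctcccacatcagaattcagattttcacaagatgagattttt
GPRI1, chr2:8855152-8855301, plus strand: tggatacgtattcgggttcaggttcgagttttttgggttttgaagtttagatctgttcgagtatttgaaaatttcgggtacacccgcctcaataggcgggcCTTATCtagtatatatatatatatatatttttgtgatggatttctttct
ELIP1, chr3:8085670-8085819, minus strand: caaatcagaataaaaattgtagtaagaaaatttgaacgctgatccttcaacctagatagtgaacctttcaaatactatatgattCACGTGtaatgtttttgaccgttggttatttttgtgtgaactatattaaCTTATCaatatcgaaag
HSP17.4, chr3:16984868-16985017, minus strand: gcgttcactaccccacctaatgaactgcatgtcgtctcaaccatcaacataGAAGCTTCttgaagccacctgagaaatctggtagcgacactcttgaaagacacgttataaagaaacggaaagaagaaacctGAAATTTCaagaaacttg

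LHCB2.3 and CRD1 each held 1 CACGTG, which began 88 and 52 bases before the start, and PSBQA held 2. ELIP1, one of the lower loci, held a CACGTG as well, 66 bases before its start, and a GATAAG on the other strand like that of GPRI1. HSP17.4 held 2 GAANNTTC matches. Every window printed holds a match, so these windows do not show how common the motifs are among genes that moved together. The shares over whole sets follow. In windows of the same length CACGTG was present in 7 of the 35 photosystem and antenna genes (20.0%), 36 of 597 higher loci with a window (6.03%), 11 of 204 lower loci (5.39%) and 5.68% of 19755 protein-coding loci tested. It was present in 2 of 22 chlorophyll synthesis and GLK genes, 2 of 14 heat shock genes and 2 of 17 Calvin cycle genes. GATAAG was present in 7 of the 35, in 2 of the 22, in 1 of the 14 and in 4 of the 17, in 67 of 597 higher loci (11.2%), in 17 of 204 lower loci (8.33%) and in 7.53% of those tested. GAANNTTC was present in 3 of 14 heat shock genes, in 4.86% of higher loci, 6.37% of lower loci and 5.13% of those tested. A match is a description of letters, and binding was not measured.

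Light-harvesting antenna genes were among the higher loci. Of 35 nuclear photosystem and antenna genes tested, 35 were called higher than preglobular, 30 higher than mature green and 0 lower than either, and 17 met the full rule. Over all loci tested 31.9% were called higher and 31.0% lower than preglobular, 36.1% higher and 34.3% lower than mature green. The full rule was met as higher by 2.98%. The median log2 change of the list was 5.35 from preglobular and 1.85 from mature green, beside medians of 0.03 and 0.04 over all loci tested. The summed level of the 35 was 14214 to 14686 CPM at late heart, not far above the highest mature green library (12158 CPM). It was 22278 to 63846 CPM at early torpedo and 40820 to 59746 CPM at late torpedo. Without the 2 libraries that stand apart, 12 of the 35 met the rule (LHCB3, LHCB4.1, LHCB4.2, PSAN and PSBW fell under 4-fold at mature green), and with libraries scaled by totals alone 31 did.

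LHCB2.3, an antenna protein of photosystem II, stood at 0, 0.179 and 0.0469 CPM in the 3 preglobular libraries. It reached 15.5, 14.8 and 13.5 CPM at late heart, 44.2, 314 and 44.2 CPM at early torpedo and 304, 209 and 274 CPM at late torpedo, and was back at 5.37, 4.80 and 1.5 CPM at mature green. The lowest middle library was thus above the highest end library, and early torpedo replicate 2 lay with the late torpedo libraries. The mean of 137 ± 135 CPM (SD, n = 9, over 3 stages) was 35.3-fold above mature green (log2 4.36, SE 0.62, adjusted p = 2.31e-06), and 22.6-fold without the 2 libraries that stand apart.

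LHCB2.2, its close paralog, showed the same shape, from 0.314 to 1.41 CPM at preglobular, 53.2 to 1071 CPM in the middle and 1.25 to 14.5 CPM at mature green. CAB2 (LHCB1.1), an antenna protein of the other major kind, averaged 4.89 ± 3.76 CPM at preglobular (n = 3), 709 ± 571 CPM in the middle (n = 9) and 26.4 ± 21.5 CPM at mature green (n = 3). Reads of such near-identical genes can be split arbitrarily between them, so the families were also summed. The sum of LHCB2.1, LHCB2.2 and LHCB2.3 was 165-fold above preglobular and 5.18-fold above mature green, and the sum of LHCB1.1, LHCB1.2 and LHCB1.3 was 76.5-fold and 6.22-fold above them. At late heart the LHCB2 sum averaged 237 ± 20.3 CPM, near the 218 ± 128 CPM of mature green (n = 3 each). It averaged 1203 and 1950 CPM at the torpedo stages, from which its fold over mature green came. The LHCB1 sum averaged 2904, 9244 and 11858 CPM at the middle stages and 1287 CPM at mature green. The paralogs differed in their fold above mature green, which was 2.48 for LHCB2.1 and 2.94 for LHCB1.2, under the limit, and 7.45 for LHCB1.3. Without the 2 libraries that stand apart the sums were 3.33-fold and 3.74-fold above mature green, under the limit.

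Among subunits of the photosystem cores, PSBQA, of the oxygen-evolving complex of photosystem II, had 17.1, 12.1 and 5.15 CPM at preglobular. It had 220, 217 and 210 CPM at late heart, 295, 901 and 306 CPM at early torpedo, 697, 474 and 564 CPM at late torpedo, and 17.3, 24.8 and 2.67 CPM at mature green. The ends overlapped each other and no end library came near the middle (29.0-fold above mature green, log2 4.73, SE 0.54, adjusted p = 9.50e-08). PSBO2, another oxygen-evolving subunit, was 70.8-fold above preglobular and 18.4-fold above mature green, at a middle mean of 270 ± 149 CPM (n = 9). The photosystem I subunit PSAH2 was 35.1-fold and 14.0-fold above the ends and the antenna gene LHCA1 had log2 changes of 4.41 and 2.98. Without the 2 libraries that stand apart PSBQA was 17.7-fold, PSBO2 11.97-fold and PSAH2 9.28-fold above mature green. LHCB6, by contrast, was 22.6-fold above preglobular at a mean of 1075 CPM but its mature green level of 340 ± 207 CPM (n = 3) kept it outside the rule.

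Genes of chlorophyll synthesis were also among the higher loci. Of 22 genes of this pathway and its GLK regulators, 21 were called higher than preglobular, 19 higher and 1 lower than mature green, and 13 met the rule, with median log2 changes of 3.05 and 2.47. The lower one was GLK2, at 9.85 CPM in the middle and 30.1 CPM at mature green. Among all loci tested 31.9% were called higher than preglobular, 36.1% higher and 34.3% lower than mature green, and 2.98% met the rule. With the 2 libraries that stand apart left out 12 of the 22 met the rule, and CHLD was 3.89-fold above mature green. GPRI1, the locus known as GLK1, had 0.544, 0.897 and 0.0469 CPM at preglobular. It had 16.6, 15.3 and 16.9 CPM at late heart, 31.0, 39.9 and 34.7 CPM at early torpedo, 47.3, 45.9 and 40.5 CPM at late torpedo, and 0.868, 0.457 and 1.33 CPM at mature green. The stages of the middle did not overlap each other, and both ends were at or under 1.33 CPM (36.2-fold above mature green, log2 5.06, SE 0.39, adjusted p = 1.74e-10).

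PORB, which reduces protochlorophyllide in the light, averaged 2.94 ± 1.62 CPM at preglobular (n = 3) and 581 ± 379 CPM in the middle (n = 9), and had 25.4, 35.0 and 4.33 CPM in the mature green libraries. GUN5, a subunit of the magnesium chelatase that commits the pathway to chlorophyll, was 14.9-fold and 10.5-fold above the ends, and the chelatase subunits CHLI1 and CHLI2 were 6.93-fold and 9.58-fold above preglobular and 7.73-fold and 12.4-fold above mature green. CRD1, of the cyclase step, reached 573 ± 236 CPM in the middle (n = 9) against 23.4 ± 15.2 and 92.3 ± 56.3 CPM (n = 3 each). Above preglobular, GSA2 and HEMC, of early steps, were 5.75-fold and 6.68-fold higher, and G4, the chlorophyll synthase of the last step, 5.11-fold.

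In the Calvin cycle list 17 of 17 genes were called higher than preglobular, 11 were called higher and 1 lower than mature green, and 8 met the rule (6 without the 2 libraries that stand apart). Among all loci tested 31.9% were called higher than preglobular, 36.1% higher and 34.3% lower than mature green, and 2.98% met the rule. RCA, the activase of Rubisco, was 29.9-fold and 10.2-fold above the ends at a middle mean of 248 ± 106 CPM (n = 9). HCEF1, a fructose-bisphosphatase, was 19.6-fold and 14.0-fold above them. RBCS3B, a small subunit gene of Rubisco, had 19.9 to 690 CPM in the middle, 0.656 to 3.99 CPM at preglobular and 0.305 to 0.500 CPM at mature green. RBCS1B and RBCS2B, also among the 8, were lower, with 0.201 to 12.2 and 0.201 to 16.1 CPM in the middle. The 4 small subunit genes together were 46.9-fold above preglobular but only 2.02-fold above mature green, because RBCS1A, with 2443 ± 707 CPM at mature green (n = 3), made up nearly all of the sum. The sum of the 4 averaged 1954 ± 72.1 CPM at late heart, under the 2444 ± 707 CPM of mature green (n = 3 each). RBCS1A itself did not meet the rule.

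Of plastid-encoded loci 8 of 130 tested met the rule, beside 2.98% of all loci tested. No overlap between libraries was seen in 7 of the 8, beside 496 of the 627 higher loci. Of the 130, 106 were called higher than preglobular and 75 higher than mature green, with 15 lower than mature green, and the median log2 changes were 1.27 and 0.87. The shares of all loci tested in these 3 calls were 31.9%, 36.1% and 34.3%. ATCG00640 was at 145 CPM in the middle against 31.9 and 20.1 CPM at the ends. ATCG00970 and ATCG01160 had the same means in all groups (95.2 CPM in the middle), so their reads were not told apart. Without the 2 libraries that stand apart 5 loci met the rule. The libraries were made from polyadenylated RNA, and most plastid transcripts lack a long poly(A) tail.

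Genes for the ribosome of the chloroplast were also among the higher loci, a group chosen after its values were seen. They were 17 of the 627 (2.71%), beside 0.19% of all loci tested. Of 40 ribosomal protein genes whose RefSeq location names the chloroplast and no cytosolic part, 30 were called higher and 3 lower than preglobular, 35 higher and 3 lower than mature green, and 17 met the rule. The location note alone chose the 40, so genes of the cytosolic ribosome can be among them, as RPL10B may be. The median log2 changes over the 40 were 1.901 and 2.609. RPL15, one of the 17, had a mean of 418 ± 120 CPM in the middle (n = 9) against 70.7 ± 8.61 CPM at preglobular and 46.3 ± 13.5 CPM at mature green (n = 3 each), and PRPL35, another, was 4.09-fold and 6.68-fold above the ends. Of 265 other ribosomal protein genes 237 were called lower than preglobular and 247 higher than mature green, and 6 met the rule. The other genes include some of the plastid ribosome whose location the annotation does not name, such as PRPL11, one of the 6. Over the 265 the median log2 changes were -0.90 and 1.57. Among all loci tested 31.9% were called higher and 31.0% lower than preglobular, and 36.1% higher and 34.3% lower than mature green. The rule was met as higher by 2.98% of them, and the 6 of 265 are near that share.

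**Figure D2:**
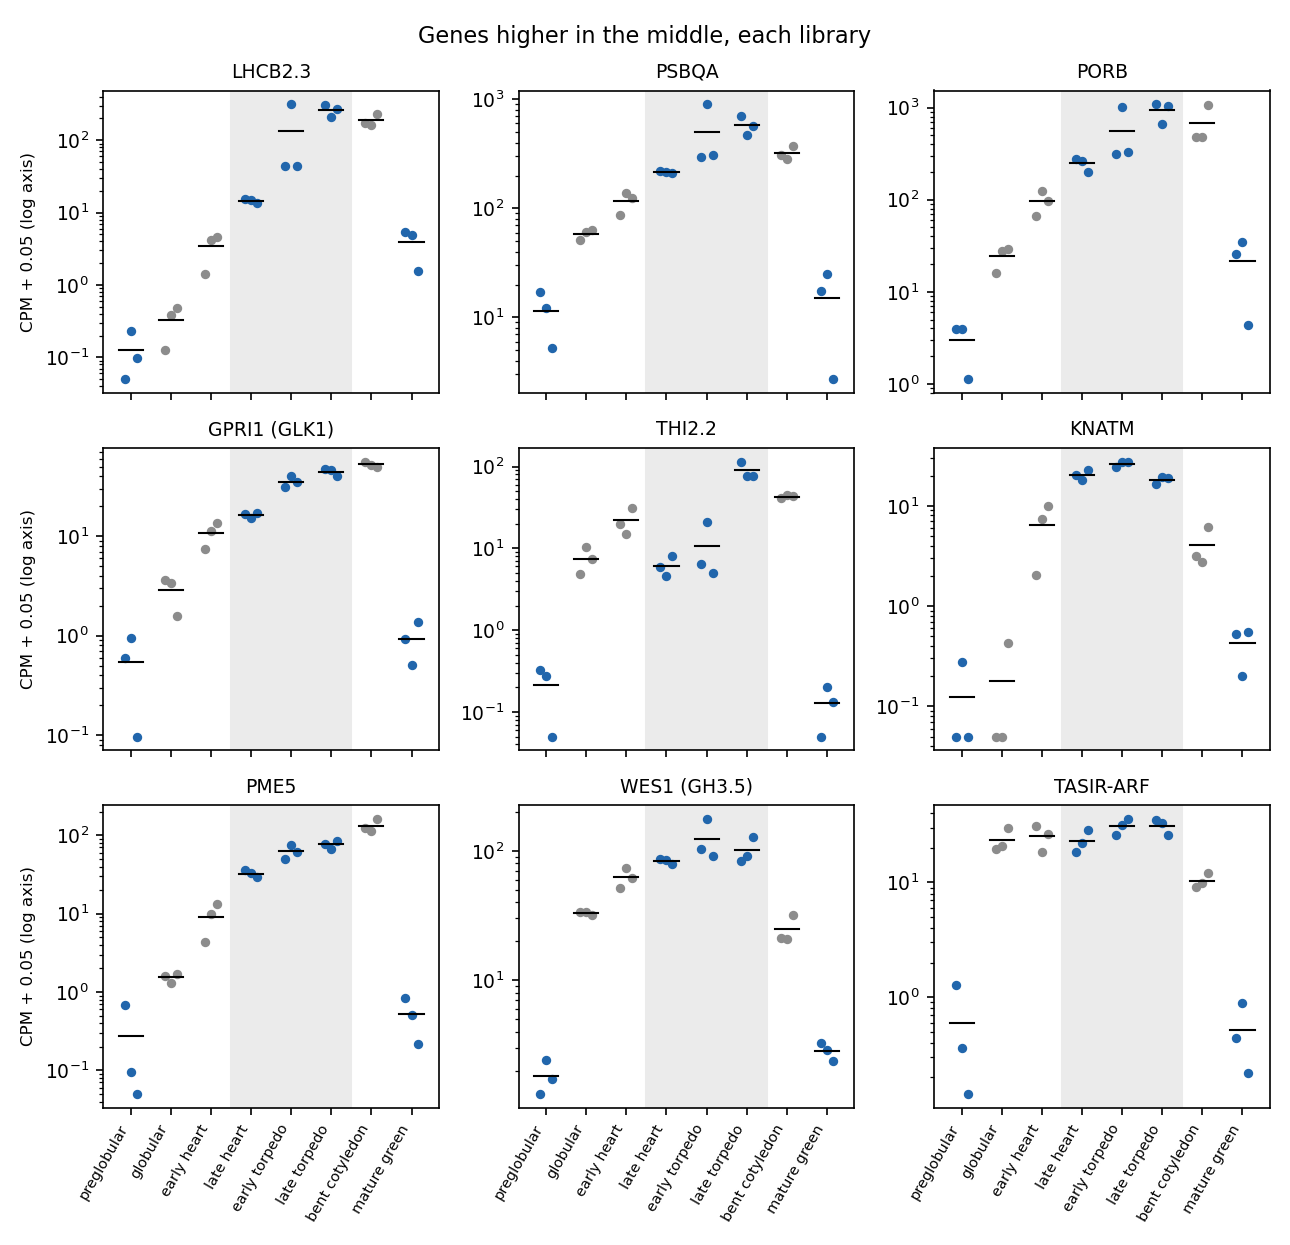
CPM in each of the 24 stage libraries for 9 genes higher in the middle, on log axes after adding 0.05 CPM; blue points are the libraries compared, grey points stages whose levels the rule did not use, black bars stage means and grey bands the middle. In all 9 panels the lowest of the 9 middle libraries is above the highest of the 6 end libraries.

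Some genes of cell walls and water transport were among the higher loci. PME5, a pectin methylesterase, had 0.635, 0.0448 and 0 CPM at preglobular, 29.2 to 35.6 CPM at late heart, 50.3 to 74.7 CPM at early torpedo, 66.7 to 85.5 CPM at late torpedo and 0.167 to 0.789 CPM at mature green. It was 252-fold and 121-fold above the ends (log2 6.80, SE 0.50, adjusted p = 8.54e-11 against mature green). Those folds were 2546 without preglobular replicate 1 and 183 without mature green replicate 1. RGP3, of the family that interconverts forms of UDP-arabinose, was 155-fold and 69.1-fold above them, and XYL4, a xylosidase, 94.3-fold and 34.4-fold at a mean of 321 ± 94.5 CPM (n = 9). Above preglobular RGP3 was 237-fold without preglobular replicate 3 and XYL4 186-fold without preglobular replicate 1. EXPB3, an expansin that loosens walls, was higher than the ends by log2 2.70 and 2.75, while of 19 expansin genes tested 2 met the rule and 9 were called lower than preglobular. Of all loci tested 2.98% met the rule as higher and 31.0% were called lower than preglobular. Of 13 xyloglucan endotransglucosylase genes tested, XTH15 alone met it, at 12.7 ± 8.23 CPM (n = 9) with overlapping libraries, and 3.01-fold above mature green without the 2 libraries that stand apart. Of 17 aquaporin genes 5 met it, led in level by PIP2;8 with 215 ± 80.0 CPM (n = 9) against 2.40 ± 3.17 and 22.4 ± 15.2 CPM (n = 3 each). Against mature green 7 of the 17 were called higher and 6 lower, beside 36.1% and 34.3% of all loci. TIP2;2, at a middle mean of 1.12 CPM, lost its call in edgeR without late torpedo (adjusted p = 0.0523), without preglobular replicate 1 (0.0739), without mature green replicate 2 (0.0580) or 3 (0.0672), and without the 2 libraries that stand apart (0.0986).

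Sugar carriers were among the higher loci, chosen here after their values were seen. SUC1, a sucrose carrier, rose from 3.07 CPM at preglobular to stage means of 38.6, 59.9 and 124 CPM and stood at 0.160 CPM at mature green. SWEET11, a sucrose exporter, was at 0.637 CPM at late heart and 22.4 and 30.1 CPM at the torpedo stages, so its late heart libraries lay under mature green (2.61 ± 1.09 CPM, n = 3) and it met the rule through the torpedo stages. NSP1, which steers the breakdown of glucosinolates, was 24.5-fold above preglobular (log2 4.55) and higher than mature green by log2 6.56.

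Among regulators, KNATM, a KNOX protein without a homeodomain that acts in leaf patterning, had 0, 0.224 and 0 CPM at preglobular, 20.4, 18.19 and 22.5 CPM at late heart, 24.6, 27.5 and 27.0 CPM at early torpedo, 16.3, 19.3 and 18.9 CPM at late torpedo, and 0.473, 0.152 and 0.500 CPM at mature green. Unlike the antenna genes it was as high at late heart as at late torpedo (log2 -0.17, SE 0.46, adjusted p = 0.816), and early torpedo replicate 2 lay with its stage. ANT, which drives organ growth, had 0.544, 0 and 0 CPM at preglobular and its highest middle stage mean of 93.4 CPM at late heart, and was 20.2-fold above mature green. The growth factor GRF6 was the other of 37 cotyledon polarity and growth genes to meet the rule, beside 2.98% of all loci tested. Of the 37, 29 were called higher than preglobular, beside 31.9% of all loci. Against mature green 15 of the 37 were called higher and 13 lower, beside 36.1% and 34.3% of all loci.

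Other regulators that met the rule were named after their values were seen. JAG, a zinc finger protein that promotes growth of leaf and petal blades, had a mean of 18.7 ± 3.64 CPM in the middle (n = 9) and 1 count in all at each end. Its ratio to mature green was 706, with a counting interval of 127 to 27876 at the 0.95 level. HB25, a zinc finger homeodomain protein, was at 197 ± 33.1 CPM in the middle (n = 9) against 0.861 ± 0.710 and 21.4 ± 1.21 CPM (n = 3 each). BOP2, which sets organ boundaries, was just past the limit at mature green (4.27-fold). It was 1 of 21 meristem, boundary and root founder genes to meet the rule, beside 2.98% of all loci tested. Genes best known from flowers, UFO and PI, were also higher, at middle means of 3.52 ± 1.84 and 1.91 ± 1.08 CPM (n = 9). CIB1, a bHLH factor that binds a blue light receptor, had 0 counts at both ends and was at least 210-fold and 121-fold higher against a floor of 3 counts over the 3 libraries of each end. It overlaps another gene on the same strand, so its reads are uncertain.

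Single genes that conjugate or move auxin were among the higher loci. WES1 (GH3.5), which joins auxin to amino acids, had 1.27, 2.38 and 1.69 CPM at preglobular, 78.8 to 87.2 CPM at late heart, 91.7 to 176 CPM at early torpedo, 83.6 to 127 CPM at late torpedo and 2.33 to 3.24 CPM at mature green. Its early torpedo libraries all lay above late heart, while late torpedo against late heart was not called (log2 0.27, SE 0.22, adjusted p = 0.375). WES1 was 57.8-fold and 36.7-fold above the ends. The related DFL1 and GH3.3 were 25.1-fold (42.7-fold without mature green replicate 1) and 9.42-fold above mature green. PIN6, an auxin carrier, was the single one of 20 auxin transport and synthesis genes tested that met the rule, beside 2.98% of all loci tested. PIN6 was at 42.4 ± 4.92 CPM (n = 9) against 0.735 ± 0.789 and 1.71 ± 0.805 CPM (n = 3 each). Of the 20, 10 were called lower than preglobular, beside 31.0% of all loci. GA2OX4, which inactivates gibberellin, was 242-fold above preglobular at 14.7 ± 3.71 CPM (n = 9), and its ratio to mature green, which held 2 counts, was 278 with a counting interval of 77.0 to 2298.

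TASIR-ARF, a precursor of small RNAs that target auxin response factors, had 1.22, 0.314 and 0.0937 CPM at preglobular and 0.395, 0.838 and 0.167 CPM at mature green. Its middle libraries lay between 18.3 and 35.6 CPM, with no trend from late heart to late torpedo past the test (log2 0.45, SE 0.32, adjusted p = 0.306). TASIR-ARF was 52.3-fold above preglobular (139-fold without preglobular replicate 1) and 61.0-fold above mature green (101.3-fold without mature green replicate 2).

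THI2.2, a thionin (a small antimicrobial peptide), had 0.272, 0.224 and 0 CPM at preglobular, 4.48 to 8.00 CPM at late heart, 4.92 to 20.7 CPM at early torpedo, 77.0 to 115 CPM at late torpedo and 0 to 0.152 CPM at mature green. It rose by log2 3.88 (SE 0.45, adjusted p = 4.30e-06) from late heart to late torpedo. The dehydrins ERD10 and COR47, known from cold and drought responses, were 42.4-fold and 24.3-fold above mature green although most maturation genes were higher there. Among loci without a symbol, AT5G48490, of the lipid transfer and 2S albumin superfamily, was at 9.88 to 241 CPM in the middle and at no more than 0.158 CPM at either end. AT1G50650, of the stigma-specific Stig1 family, had 0 counts in all 6 end libraries and 0.633 to 48.6 CPM in the middle, at least 306-fold above mature green against the floor of 3 counts. AT1G49975, annotated as a photosystem I subunit N, was 131-fold and 87.4-fold above the ends, AT1G29270, a bHLH35-like protein, 175-fold and 263-fold, and AT5G03350, a legume lectin, 93.2-fold above mature green with 0 counts at preglobular. Leaving out 1 library gave 117-fold to 383-fold over preglobular and 175-fold to 901-fold over mature green for AT1G29270, and up to 171-fold over mature green for AT1G49975, without mature green replicate 2. Without the 2 libraries that stand apart AT1G29270 was 163-fold and AT1G49975 56.0-fold above mature green. RGP3, KNATM, LHCB2.3, XYL4, PORB and AT5G03350 each overlap another gene on the other strand. The libraries' strand is not stated, so reads of the pair cannot be told apart.

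Of the 215 lower loci 120 had no overlap between middle and end libraries, 19 had a mean of at least 20 CPM at both ends, and 77 carried a symbol. Of the 627 higher loci 496 had no overlap, 227 had at least 20 CPM in the middle, and 301 carried a symbol. The limit of 20 CPM is harder to meet at both ends than in the middle, so 19 and 227 are not like for like. Of 21014 loci tested 7492 had at least 20 CPM in the middle and 8515 carried a symbol. Over all loci tested 7.32% had every middle library above every end library and 2.85% every middle library below. In 37 of the 215 the 9 middle libraries together held 3 counts or fewer.

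ELIP1, an early light-induced protein that binds chlorophyll and protects thylakoids from excess light, went opposite to the antenna. It had 43.4, 25.2 and 7.82 CPM at preglobular, 0.633, 0.488 and 0.387 CPM at late heart, 1.15, 0.420 and 1.03 CPM at early torpedo, 0.172, 0.534 and 0.492 CPM at late torpedo, and 157, 23.1 and 330 CPM at mature green. No middle library passed 1.15 CPM, and the end libraries differed widely among themselves. The ratio of the middle to preglobular was 0.0232 over all libraries (log2 -5.49, SE 0.54, adjusted p = 2.02e-08), and 0.0358 without preglobular replicate 1. The ratio to mature green was 0.00347 over all libraries (log2 -8.22, SE 0.54, adjusted p = 1.53e-11), and 0.00655 without mature green replicate 3.

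AT2G15010, annotated as a plant thionin, had 32.4, 42.0 and 59.8 CPM at preglobular, between 0.168 and 1.71 CPM in the 9 middle libraries, and 2273, 2618 and 3201 CPM at mature green. The log2 change of AT2G15010 from preglobular was -5.93 (SE 0.25, adjusted p = 9.68e-14), opposite to THI2.2, another thionin. LCR68, a small cysteine-rich peptide of the defensin-like kind, fell from 612, 1035 and 1525 CPM at preglobular to 1.58 to 1.93 CPM at late heart, was at 9.81, 33.6 and 14.9 CPM at early torpedo and 33.4 to 44.6 CPM at late torpedo, and had 134 to 335 CPM at mature green. It was therefore lowest at late heart and rose again within the middle (late torpedo minus late heart log2 4.49, SE 0.48, adjusted p = 1.93e-06).

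AGP10, an arabinogalactan protein of the cell surface, and PATL1, a patellin that binds phosphoinositides at membranes and the cell plate, changed less. AGP10 had 403 to 632 CPM at preglobular, 50.9 to 140 CPM in the middle and 550 to 713 CPM at mature green, and was 5.86-fold under the nearer end. PATL1 had 44.0 to 84.1, 8.00 to 20.7 and 278 to 320 CPM, 5.18-fold under preglobular. NUC-L2, a nucleolin of ribosomal RNA synthesis, had 56.8 to 71.6 CPM at preglobular, 1.37 to 7.48 CPM in the middle and 10.3, 20.3 and 48.2 CPM at mature green. Without early torpedo replicate 2 and mature green replicate 3 its mean ratio of middle to mature green was 0.302, which no longer met the 4-fold limit. TRM24, of a family tied to microtubule arrays, and PHI-1, a phosphate-responsive protein, were 6.05-fold and 6.76-fold under the nearer end.

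Other loci low in the middle had no symbol. AT4G33820, a glycosyl hydrolase by annotation, averaged 96.8 ± 34.0 CPM at preglobular (n = 3) and 2.82 ± 1.66 CPM in the middle (n = 9), and had 91.0, 88.0 and 123 CPM at mature green. AT4G02720 was at 29.5 to 42.3 CPM and 14.8 to 27.0 CPM at the ends and at 0 in all early and late torpedo libraries and in late heart replicate 3, while the other late heart libraries had 7.73 and 5.98 CPM. AT5G11970 and AT3G61900, the latter of the SAUR auxin-responsive family, were 12.8-fold and 11.6-fold under the nearer end. AGP10, AT4G02720 and AT5G11970 overlap another gene on the other strand.

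**Figure D3:**
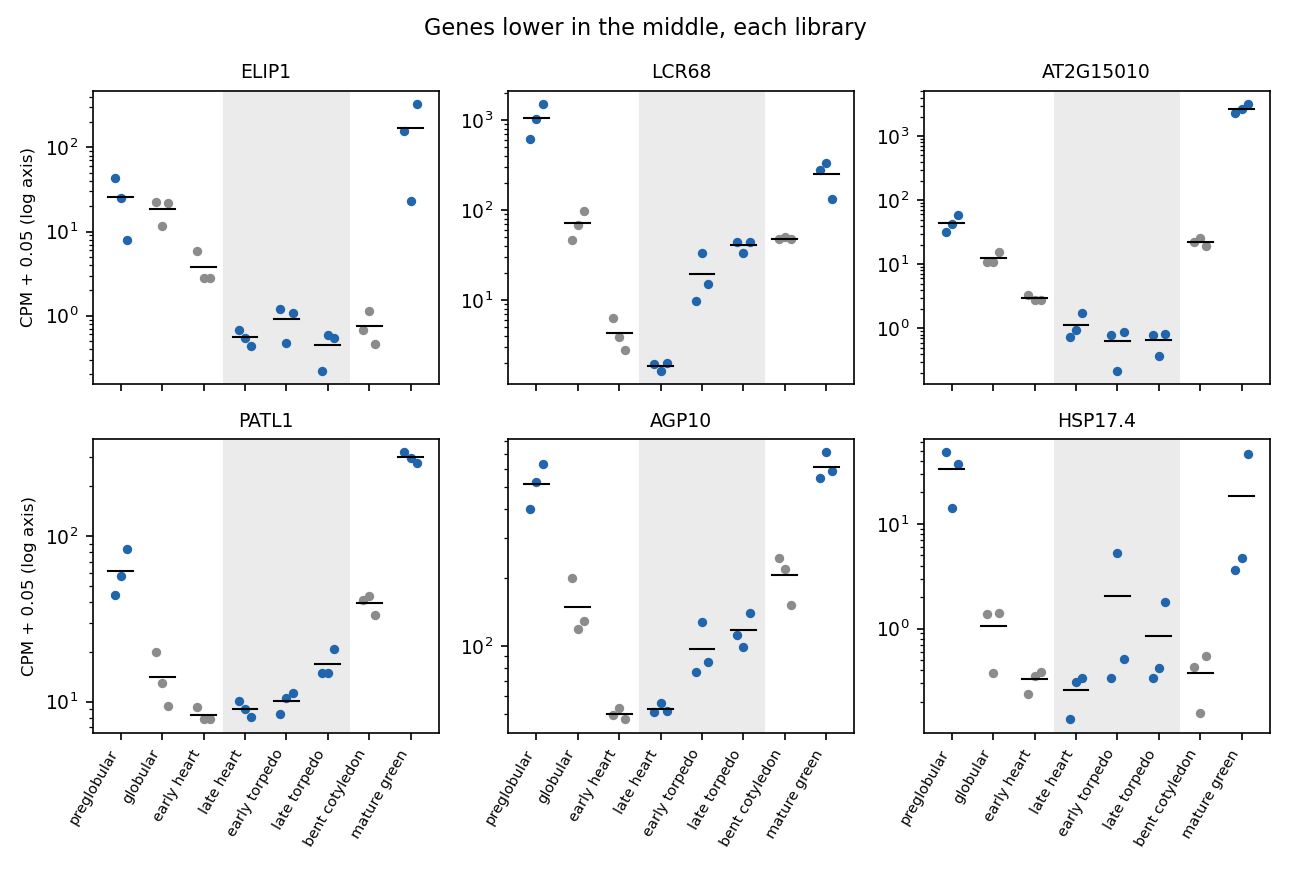
CPM in each of the 24 stage libraries for 6 genes lower in the middle, on log axes after adding 0.05 CPM, with colours, bars and bands as for the higher genes. ELIP1, LCR68, AT2G15010, PATL1 and AGP10 have no middle library above an end library, whereas the HSP17.4 value of early torpedo replicate 2 (5.24 CPM) lies above the values of 3.55 and 4.72 CPM in a pair of mature green libraries.

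The summed level of heat shock genes was high at both ends. The sum of 14 tested was 612 to 895 CPM at preglobular, 84.5 to 291 CPM in the middle and 630 to 1302 CPM at mature green, and it was already 99.5 to 151 CPM at globular. Of the 14, 13 were called lower than preglobular, 10 lower and 3 higher than mature green, and HSP17.4, Hsp70b and DREB2A met the rule. Over all loci tested 31.0% were called lower than preglobular, 34.3% lower and 36.1% higher than mature green. As lower than both ends 1.02% met the rule. Hsp70b, a chaperone, had 16.5, 5.20 and 26.6 CPM at preglobular, 1.13 to 2.70 CPM in the middle and 13.3, 12.3 and 55.9 CPM at mature green. DREB2A, a factor that activates stress genes, was at 46.3 ± 9.43, 4.64 ± 2.43 and 18.8 ± 11.3 CPM (n = 3, 9 and 3), and without the 2 libraries that stand apart its ratio of middle to mature green was 0.384, outside the limit. Summed touch, wound and jasmonate genes, 21 tested, were at 281 to 388 CPM, 204 to 407 CPM and 647 to 1159 CPM in the same order. The part of embryo handling in these levels was not tested.

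Genes at low level in the middle included several regulators, named after their values were seen. ACS2, which makes the precursor of ethylene, stood at 4.09 ± 1.74, 0.114 ± 0.0566 and 91.0 ± 47.7 CPM (n = 3, 9 and 3). WRKY28 stood at 9.91 ± 2.16, 0.259 ± 0.290 and 2.42 ± 1.16 CPM, and IAA28, a repressor of auxin responses, at 0.724 ± 0.577, 0.0561 ± 0.0530 and 4.22 ± 0.541 CPM. LTI30, a dehydrin, had 3 counts in all 9 middle libraries, and its ratio of mature green to middle was 5850 with a counting interval of 2002 to 28365 at the 0.95 level. It went opposite to the dehydrins ERD10 and COR47. Of the 215 lower loci 134 were higher at mature green than at preglobular.

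**Figure D4:**
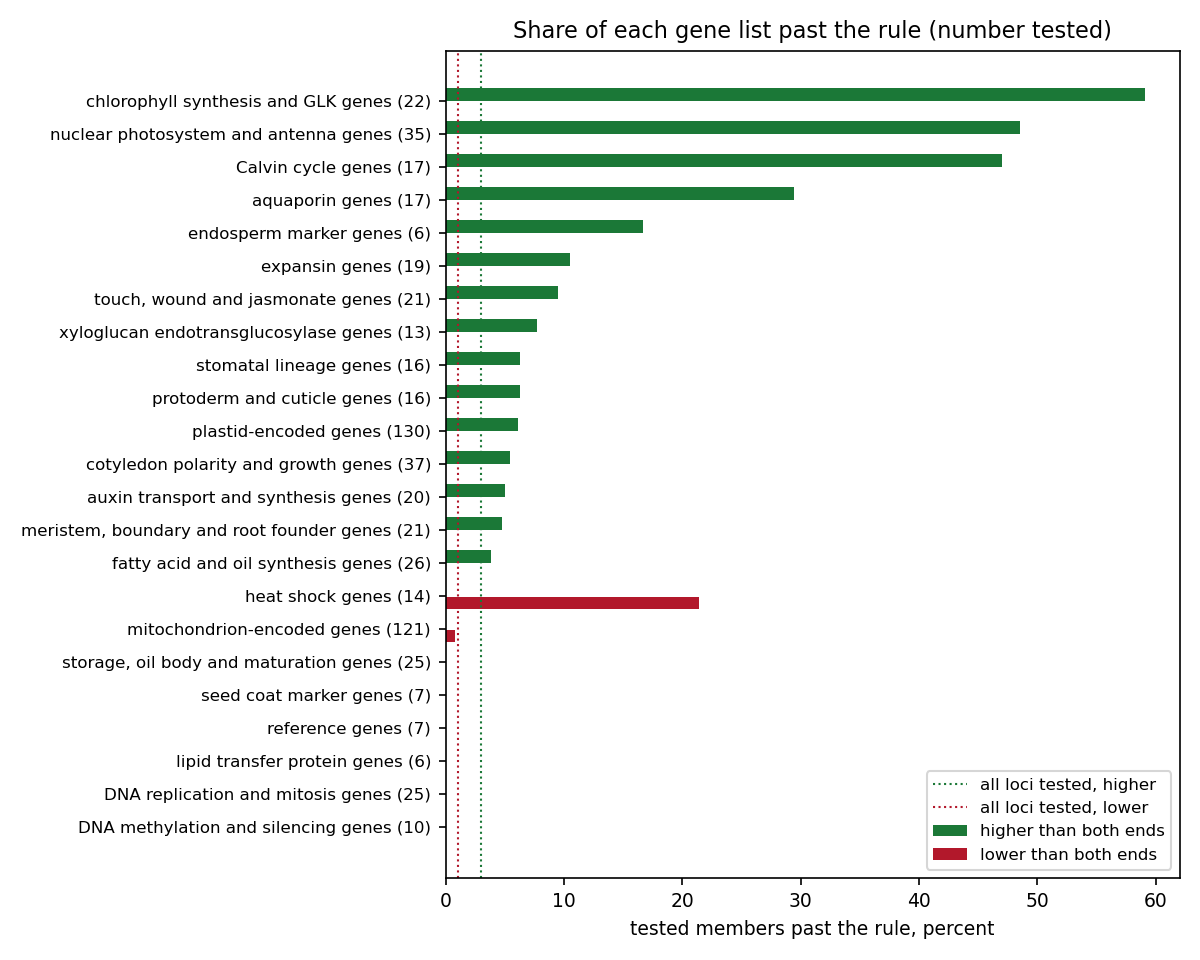
Share of the tested members of each gene list that were higher (green) or lower (red) in the middle than at both ends, with the number tested in brackets and dotted lines at 2.98% and 1.02% of all loci tested. Chlorophyll synthesis with 13 of 22, photosystem and antenna genes with 17 of 35 and the Calvin cycle with 8 of 17 lie far to the right, and heat shock genes with 3 of 14 have the longest red bar.

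In other large lists few or no members met the rule, beside 2.98% of all loci tested as higher and 1.02% as lower. The 1 of 26 and the 1 of 121 below are near those shares. Of all loci 31.9% were called higher and 31.0% lower than preglobular, and 36.1% higher and 34.3% lower than mature green. Of 25 DNA replication and mitosis genes 25 were called higher than mature green, 0 higher and 10 lower than preglobular. Of 25 storage, oil body and maturation genes tested 15 were called higher than preglobular and 20 lower than mature green. Of 26 fatty acid and oil synthesis genes 24 were called higher than preglobular and, against mature green, 7 higher and 14 lower, and ACP4, an acyl carrier protein of the plastid, was the single one to meet the rule, at 373 ± 141 CPM (n = 9) against 14.7 ± 9.58 and 25.7 ± 5.12 CPM (n = 3 each). Of 121 mitochondrion-encoded loci 118 were called lower than preglobular, 14 were called higher and 15 lower than mature green, and 1 met the rule as lower.

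In the remaining lists single members met the rule, 1 of 16 stomatal genes (BASL, 0.823 CPM in the middle), 1 of 16 protoderm genes (ALE1, 4.14 CPM) and 1 of 6 endosperm genes (RGE1, 1.61 CPM), and 2 of 21 did among touch, wound and jasmonate genes (JAZ6 at 1.25 CPM and TCH3 at 6.85 CPM), beside 2.98% of all loci tested. None did among 6 lipid transfer protein, 7 seed coat, 10 DNA methylation and 7 reference genes.

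The rule fixes that the higher loci are low at preglobular and mature green, but not how they lie between. Their median stage mean was 0.256 CPM at preglobular, 1.00 at globular, 3.18 at early heart, 5.24 at late heart, 8.28 at early torpedo, 9.67 at late torpedo, 4.75 at bent cotyledon and 0.474 CPM at mature green. The highest of the 8 stage means fell at late torpedo for 315 loci, at early torpedo for 154, at late heart for 60 and at a stage outside the middle for the others, bent cotyledon in 65, early heart in 27 and globular in 6. In 359 loci each of the 3 middle stages on its own was 4-fold above both ends.

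**Figure D5:**
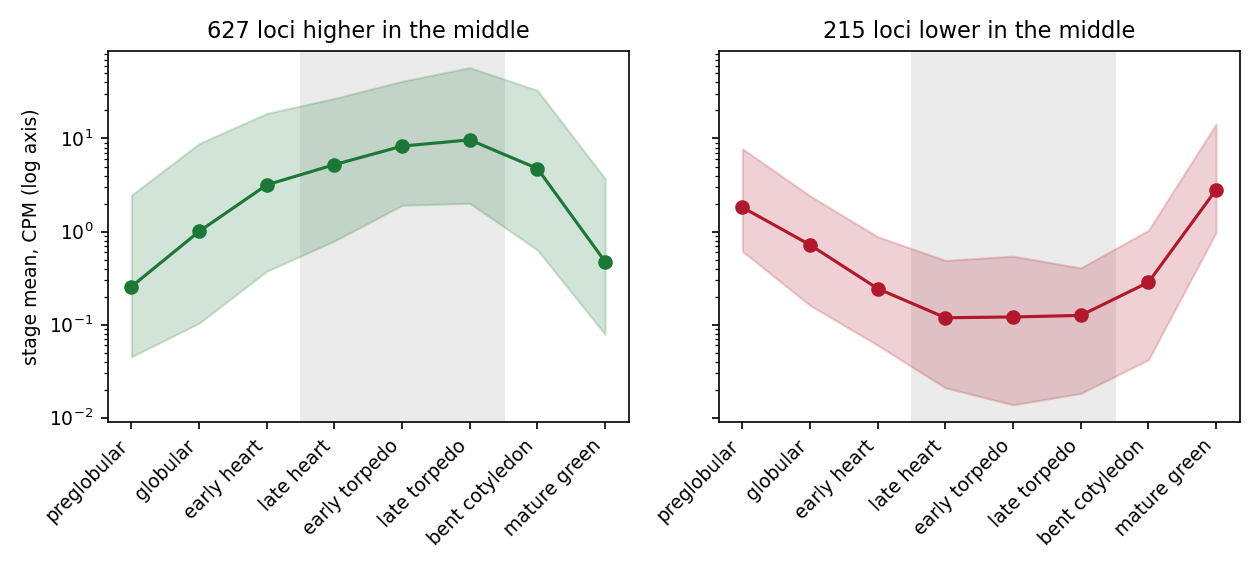
Median (line) and quartiles (shading) of the stage mean CPM over the 627 higher and 215 lower loci at the 8 stages, on a log axis, with the middle in grey. The median of the higher loci is 5.24 CPM at late heart, 8.28 CPM at early torpedo and 9.67 CPM at late torpedo. The difference of the middle from preglobular and mature green is fixed by how the loci were chosen.

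Late torpedo was compared with late heart as a contrast within the middle. Of all loci tested 3885 (18.5%) were called higher and 2068 (9.84%) lower at late torpedo, whereas of the 627 higher loci 274 (43.7%) were called higher and 32 (5.10%) lower. These are 6 of the 9 libraries whose mean chose the loci, so the shares are a description. Of the 35 photosystem and antenna genes 33 were called higher and none lower. Members that were lower at late torpedo included BLH11, a BELL homeodomain factor (33.8 CPM at late heart and 9.32 CPM at late torpedo, log2 -1.86, adjusted p = 0.000653), EXLB1, an expansin-like gene (4.95 and 0.932 CPM), and NUB, the closest relative of JAG (7.58 and 2.71 CPM). The number called in this contrast was between 3680 and 5471 of all loci when 1 library was left out, the lowest without late torpedo replicate 1. Of the 215 lower loci 21 (9.77%) were called higher and 12 lower at late torpedo.

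Early heart against globular compares 6 libraries whose levels the rule did not use, although they entered the filter, the scaling and the estimate of spread. Of all loci tested 1801 (8.57%) were called higher and 1897 (9.03%) lower at early heart. Their sum of 3698 became 1837 to 3432 when 1 of the 6 libraries was left out, lowest without early heart replicate 3 and also down more than 1.5 times without globular replicate 1 (2210) or early heart replicate 2 (2038). It was 5576 without the 2 libraries that stand apart, a setting chosen after seeing the data. Of the 627 higher loci 250 (39.9%) were called higher and 1 lower, and of the 215 lower loci 2 were called higher and 61 (28.4%) lower. JAG was at 0.676 CPM at globular and 15.9 CPM at early heart (log2 4.49, adjusted p = 7.86e-06), PRE1, an atypical bHLH protein that promotes cell elongation, at 0.177 and 7.77 CPM, and WES1 changed by log2 0.92. Of the 35 photosystem and antenna genes 17 were called higher, among them LHCB2.3 at 0.281 and 3.38 CPM (log2 3.62, adjusted p = 0.00788), whereas LHCB3 at 100 and 209 CPM was not called (adjusted p = 0.204).

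Bent cotyledon, the stage between late torpedo and mature green, also entered the fit but gave no level to the rule. Its mean was above the middle mean, which chose the loci, in 151 of the 627 higher loci. In 469 of the 627 it was at least 4-fold over the mature green mean, which the rule made low in all of them. At least the 151 loci above the middle mean were thus not high in the middle alone. Neither count was made over all loci. PSBO2 was at 628 CPM at bent cotyledon against 417 CPM at late torpedo, and GUN5 at 609 against 303 CPM. ACP4, by contrast, had fallen to 144 CPM from 482 CPM, and AT1G50650 to 1.37 from 31.7 CPM. These libraries held 8432892 to 11552331 counts, fewer than the 15 compared, and were made from a measured input of 5 ng.

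The 4-fold limit ran through a continuum. FBA1, a plastid aldolase, and PRPL35, a plastid ribosomal protein, were just inside with 4.07-fold and 4.09-fold at the nearer end, and LSMT-L, a methyltransferase, and J8, a DNAJ protein, just outside with 3.98-fold each. On the lower side PATL1 and AGP10 were the nearest inside by the naming rule, with 5.18-fold and 5.86-fold, and HSFA2, a heat shock factor, and NPC6, a phospholipase, the nearest outside with 3.796-fold and 3.76-fold.

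Annotated location, another property that the rule did not use, differed between the sets. Of 383 higher loci with a location named in the RefSeq annotation of TAIR10.1, 141 (36.8%) included the chloroplast, beside 19.9% of 12296 tested loci and 12 of 114 lower loci (10.5%). Endomembrane system, cell wall or extracellular region was named for 116 of the 383 (30.3%), for 42 of the 114 lower loci (36.8%) and for 19.8% of all tested.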

How the data were processed

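Polyadenylated RNA of whole embryos was sequenced with Smart-seq2. kallisto 0.43.1, cutadapt 1.9.1 and the build TAIR10 are named in the submitters' processing notes; the strand setting is not given in the sources used here. The deposited tables give estimated counts per transcript, not scaled to depth, and TPM, which the authors' kallisto run scaled to length and depth. All per-sample columns were mapped to a sample (0 were not).

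Estimated counts were summed per locus (the suffix of the transcript name removed) and rounded to whole numbers. The 96 spike-ins took 0.460% to 4.98% of counts in the 15 libraries and 1064 other noncoding transcripts 0.533% to 2.62%; both stayed out of library sizes and tests. Loci were filtered with filterByExpr, scaled with TMM and fitted with the quasi-likelihood test of edgeR 4.0.16 in R 4.3.3, with 1 coefficient for each of 8 stages. The middle was the mean of 3 stage coefficients, p-values were Benjamini-Hochberg adjusted over 21014 loci, and the threshold was 0.05. Both comparisons share the 9 middle libraries, and the spread of the middle (SD) includes differences between its 3 stages. Labels call replicates biological, but name no separate plants, so p-values may measure technical spread in part. No pair of replicates agreed within sampling noise. The procedure was run on simulated data with the same spread at every locus. That setting is simpler than these data, so it gives no error rate for them.

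Named were up to 15 loci per direction (15 higher, 7 lower) with a RefSeq symbol, no overlap between libraries, at least 20 CPM and the largest smaller fold, 5 more without a symbol, the pairs beside the limit and members of the gene lists; others are said to be chosen after their values were seen. The comparison, its loci and the lists were chosen with earlier results of these data known. A bound against 0 counts uses a floor of 3 counts over the group, and intervals are at the 0.95 level and cover counting error only. Alternatives used limma 3.58.1 on log2(TPM + 1) or log2(TPM + 0.1), DESeq2 1.42.0, other scalings and filters, and left out libraries or stages. Names, products and sequences come from RefSeq TAIR10.1, in which 99.59% of 48145 transcripts matched by name had the length given in the deposited tables. The other 19 libraries of the series were not used here.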

Additional observations from a re-analysis of the deposited data

How the results depend on the processing

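The loci higher and lower than both ends numbered 627 and 215. Scaling by library totals gave 1034 and 137, with 12484 loci called higher and 3412 lower than mature green. Without the filter 415 were lower, and with a filter of 5 CPM in 3 libraries 379 and 90 met the rule. With limma on log2(TPM + 1) the counts were 1108 and 73, with 3765 called lower than preglobular, 12635 higher and 3286 lower than mature green, 11723 called between late torpedo and late heart and 5793 between early heart and globular. On log2(TPM + 0.1) they were 1114 and 93, with 3646, 12730, 3237 and 11099 for the first 4 of those calls. A limit of 2-fold gave 1378 and 524, 8-fold 339 and 95, and 4-fold at each middle stage on its own 359 and 130. The cause of these shifts was not tested, except that the limits and filters change which loci can pass. Without the 2 libraries that stand apart, an alternative added after seeing the data, 5576 loci were called between early heart and globular.

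Leaving out 1 library at a time gave 559 to 656 higher loci, 207 to 276 lower loci, 12018 to 13855 called against preglobular (5683 to 6895 higher, 6228 to 7218 lower) and 13965 to 15202 against mature green (7062 to 7762 higher, 6886 to 7585 lower). Between late torpedo and late heart 3680 to 5471 were called, with 3680 without late torpedo replicate 1, and 3781 and 3804 when late heart replicate 1 or 2 was left out. Between early heart and globular 1837 to 3432 were called, with 2210 without globular replicate 1, 2038 without early heart replicate 2 and 1837 without early heart replicate 3.

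Both-end counts stayed within 1.5 times with RLE scaling (586 and 237), DESeq2 (591 and 255), the 15 libraries alone (628 and 192), the middle as 1 group (608 and 186), organelle loci left out (621 and 214), and without late heart (779 and 213), early torpedo (603 and 239) or late torpedo (532 and 243). With the replicate number as a block 623 were higher and 213 lower, of which 621 and 206 were in the full comparison. Whether the numbers pair the samples is not settled. Deviations of same-numbered libraries had a mean correlation of -0.0153 over 30 pairs of libraries, but values of opposite sign cancel in that mean. The 3 over 0.1 were those of preglobular with early torpedo (0.156 to 0.347), and early torpedo with late torpedo gave -0.356 to -0.0935.

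Of 2803 values of 94 named genes under the alternatives 2789 kept direction and call, 14 lost the call and 0 reversed. Those that lost it were ATCG00310, at 0.367 CPM in the middle, PIP2A, RBCS1B, TIP2;2 and ATMG01110. For PIP2A, DESeq2 gave no adjusted p, so that call was missing. The 4-fold limit was not part of this tally. LHCB3 counted as kept although it was 3.44-fold above mature green without the 2 libraries that stand apart. Depth limits the low loci most: 165 of the 627 held 3 counts or fewer at preglobular and 171 at mature green.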
